A study of Mus musculus with 15 samples.

Results

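The 31 genes described here encode enzymes and transporters of glycolysis, lactate handling, pyruvate entry into mitochondria and glycogen turnover. They were taken by gene symbol from a table of 35373 genes. The rule uses no measured value, but the genes were chosen with earlier results of these data known. By role, 16 belong to glycolysis, 4 to lactate metabolism, 6 to the pyruvate dehydrogenase step and 5 to glycogen. The symbols matched 32 rows, because Aldoa stands on a pair of them: the row at GRCm38 chr7:126795234-126800751 holds nearly all of its counts and is used below, and the row at chr7:126800790-126809108 stayed between 0 and 1.26 CPM, the count scaled to the normalised library size. All 31 genes passed the filter on low counts.

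RNA was sequenced from adipocytes of mouse dorsal skin, recovered as the cells that float after collagenase digestion. There were 15 libraries, each labelled as a biological replicate. Mice with activated Wnt signalling carried EngrailedCre/+ together with Rosa26rtTA/Rosa26rtTA and TetOBcat/+, so that doxycycline switches on a β-catenin transgene in cells with a history of Engrailed expression. They were sampled after 2 days of activation at postnatal day 23 (P23, n = 4) and after 5 days at P26 (n = 5). Controls of both ages (P23, n = 3, and P26, n = 3) lacked the Cre but carried Rosa26rtTA/Rosa26rtTA and TetOBcat/+, and doxycycline was given to all mice, controls included, in the diet at 6 g/kg and in drinking water at 2 mg/mL. The labels do not say which cells of the floating fraction express the Cre. Each comparison asks what Wnt activation of a given length did relative to controls of the same age.

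Glycolysis turns glucose into pyruvate. Pyruvate is then reduced to lactate by lactate dehydrogenase, or carried into mitochondria and converted by the pyruvate dehydrogenase complex to acetyl-CoA, which in adipocytes feeds fatty acid synthesis. The dehydrogenase kinases (Pdk genes) shut that complex off. Adipocytes release much of the glucose they take up as lactate, and they keep a small glycogen store that is built by glycogen synthase and branching enzyme and broken down by glycogen phosphorylase. Lactate dehydrogenase is assembled from A and B subunits in varying ratio. The A form is known for reducing pyruvate in glycolytic tissues and the B form for oxidising lactate in tissues such as heart.

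A promoter of the gene for each subunit is shown because Ldhb was the member that separated from its controls at 5 days, whereas Ldha did not. Each runs from 250 bases before to 50 bases after an annotated start (RefSeq, GRCm38.p6), written 5′ to 3′ along the gene's strand. Capitals mark ACGTG on either strand, a form of the core letters bound by hypoxia-inducible factors. ACGTG also lies within CACGTG, the E-box bound by Myc, Usf and ChREBP. The other form of the core, GCGTG, was neither counted nor marked, and it stands in both windows shown.
Ldhb promoter, chr6:142507908-142508207, minus strand: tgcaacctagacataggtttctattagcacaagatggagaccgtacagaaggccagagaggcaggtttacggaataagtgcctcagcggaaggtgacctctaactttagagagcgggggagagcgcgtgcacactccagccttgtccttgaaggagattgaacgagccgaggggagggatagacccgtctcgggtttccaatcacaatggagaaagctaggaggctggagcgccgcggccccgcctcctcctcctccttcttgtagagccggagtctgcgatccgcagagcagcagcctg
Ldha promoter (the 1 of 2 that holds the motif), chr7:46845554-46845853, plus strand: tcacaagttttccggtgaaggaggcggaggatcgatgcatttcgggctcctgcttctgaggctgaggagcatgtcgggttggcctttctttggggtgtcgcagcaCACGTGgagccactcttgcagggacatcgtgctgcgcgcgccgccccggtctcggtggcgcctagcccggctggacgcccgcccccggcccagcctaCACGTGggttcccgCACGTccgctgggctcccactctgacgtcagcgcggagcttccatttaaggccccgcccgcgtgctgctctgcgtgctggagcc
The Ldha window held ACGTG 5 times over both strands, 4 of them within its 2 copies of CACGTG, which read the same on each strand. RefSeq gives Ldha 2 promoters, and the other, not shown, held neither motif. The Ldhb window, its only one, held neither as well. Among the 46 RefSeq promoters of the 31 genes, 22 (47.8%) held ACGTG on either strand, against 19.6% of all 32851 promoters of the same length. CACGTG was in 5 of the 46 (10.9%), against 7.15% of all promoters. Some genes have several promoters, and 19 of the 31 genes held ACGTG in any of theirs. Base composition was not matched in these comparisons. A match describes letters only, and no binding was measured.

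The libraries were uneven in ways that touch most of these genes. Total counts ran from 11383421 to 38501753 per library. The summed level of 12 adipocyte markers (Adipoq and Plin1 among them) was 22310 CPM in 2-day Wnt replicate 1, 21360 CPM in 5-day Wnt replicate 1, 11800 CPM in 5-day Wnt replicate 5 and 11670 CPM in P26 control replicate 1, whereas it lay between 43380 and 82640 CPM in the other 11 libraries. Of the 31 genes, 23 had their lowest level in one of those 4 libraries, most often in 5-day Wnt replicate 5 (11 genes) and P26 control replicate 1 (8 genes). P23 control replicate 2, with the highest adipocyte marker sum, held the highest level of 10 genes. Fewer adipocytes in a preparation and less RNA of these genes per adipocyte cannot be told apart in bulk RNA. The authors' sample sheet lists 2-day Wnt replicate 1 as a control, against its title and genotype. Its library name also ends in C, as those of all controls do, whereas the names of the other Wnt libraries end in W. Its hair follicle markers (Krt25 among them) summed to 4719 CPM, the highest of all libraries. It was kept by its title here, and which label is right was not tested. Y-linked transcripts were near 0 in 2-day Wnt replicate 1, in P23 control replicates 2 and 3 and in P26 control replicates 2 and 3, and Xist, made in females, was detected in these libraries alone. All 5 of the 5-day Wnt libraries carry a Y-linked signal, and P26 control replicate 1 is the only P26 control that does. Axin2, a transcriptional target of β-catenin, stood at 10.01, 27.6, 65.0 and 43.5 CPM in the 2-day Wnt libraries, against 39.8, 8.36 and 5.48 CPM in P23 controls. It stood at 28.2, 62.8, 37.2, 43.6 and 44.8 CPM in the 5-day Wnt libraries, against 34.9, 9.07 and 4.17 CPM in P26 controls, and overlapped its controls at both times. The 10.01 CPM, in 2-day Wnt replicate 1, was the lowest Axin2 level of any Wnt library and lay near P23 control replicates 2 and 3.

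**Figure D1:**
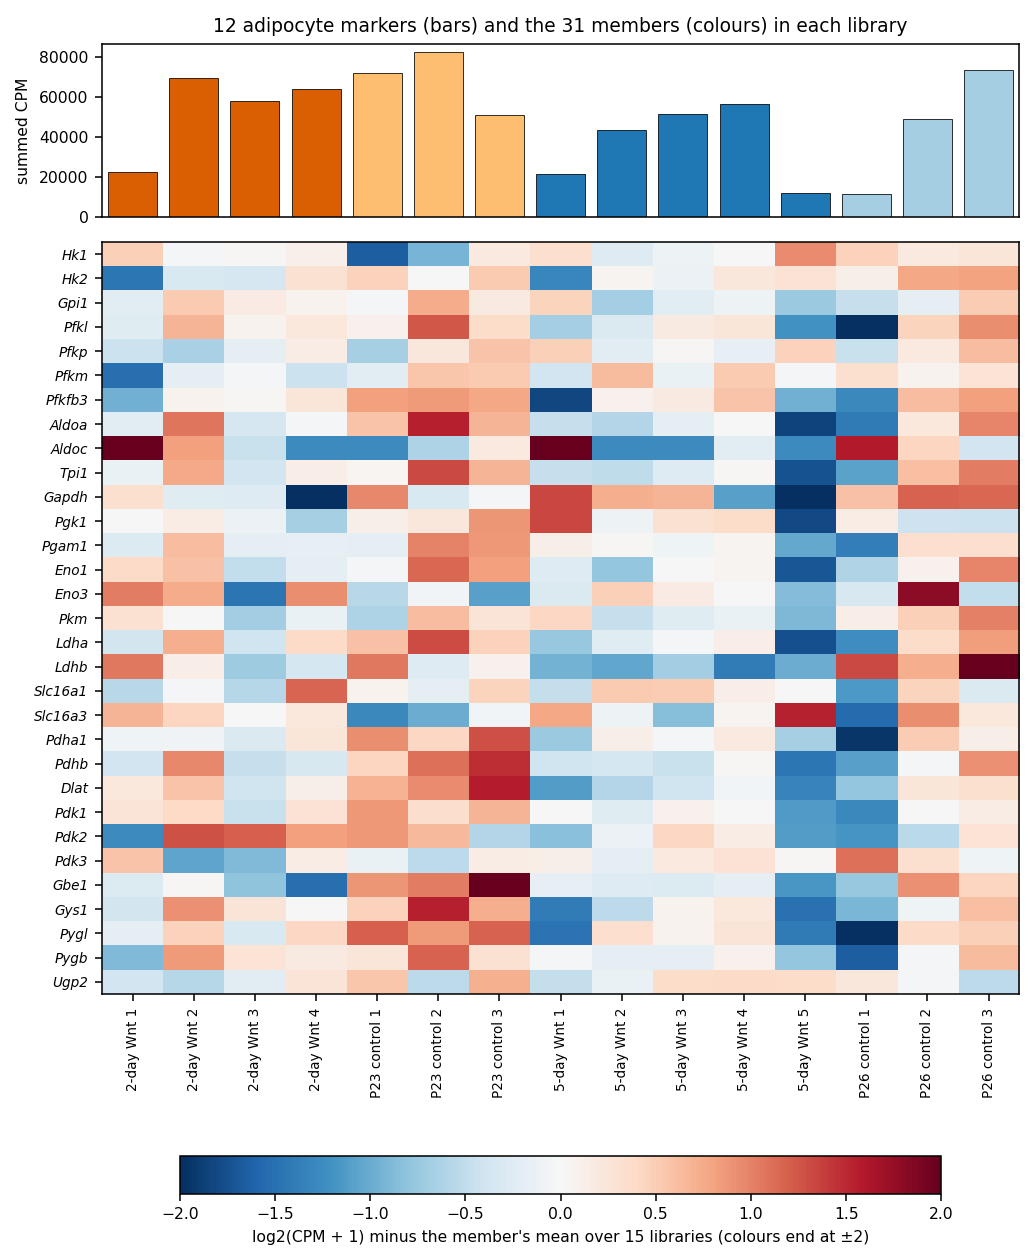
Bars give the summed CPM of 12 adipocyte markers in each of the 15 libraries, and the colours below give log2(CPM + 1) of each of the 31 genes minus that gene's mean over all libraries. Blue (low) cells gather in 5-day Wnt replicate 5 and P26 control replicate 1, which also have the lowest bars (11800 and 11670 CPM).

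No gene of the 16935 tested, and none of the 31, passed an adjusted p of 0.05 in edgeR's quasi-likelihood test in any comparison (background 0.0%). At an unadjusted p under 0.05, 3 of the 31 genes were lower at 2 days (Dlat, Gbe1 and Pdha1), against 2.2% of all genes tested, and 1 (Ldhb) was lower at 5 days, against 3.04%. None was higher at either time, against 2.96% of all genes at 2 days and 4.02% at 5 days. A second count model, DESeq2, called Gbe1 at 2 days and Ldhb at 5 days, where it called 0.901% and 1.21% of all genes. A fit that down-weights divergent libraries (limma-voom with library weights) called Ldhb at 5 days, where it called 1.33% of all genes, and called none of the 31 at 2 days, where it called 0.0%.

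Most members had fitted values of the same sign. At 2 days of Wnt activation, 25 of 31 had a negative log2 fold change (median −0.59), against 49.9% of all genes tested (median 0.0). At 5 days, 25 of 31 again had a negative value (median −0.46), against 48.4% of all genes (median 0.03). The members with positive values were Aldoc, Eno3, Hk1, Pdk2, Slc16a1 and Slc16a3 at 2 days (49.4% of all genes were positive) and Pdk1, Pdk2, Pgk1, Slc16a1, Slc16a3 and Ugp2 at 5 days (51.6%). Adipocyte markers moved the same way, with 10 of 12 negative at 2 days (median −0.34) and 11 of 12 at 5 days (median −0.39), none of them called. Stromal markers moved the other way, with 12 of 12 positive at 2 days and 11 of 12 at 5 days. Their summed level was 10100 to 28990 CPM in 2-day Wnt libraries and 9867 to 10910 CPM in P23 controls, and it was 16220 to 82900 CPM in 5-day Wnt libraries and 5675 to 26250 CPM in P26 controls. Endothelial markers were positive in 8 of 8 and erythroid markers in 5 of 5 at both times, and leukocyte markers in 15 of 15 at 2 days and 3 of 15 at 5 days. Endothelial markers summed to 18.6 to 914.9 CPM in 2-day Wnt libraries and 109.2 to 690.8 CPM in P23 controls, and to 322.8 to 1019 CPM in 5-day Wnt libraries and 174.8 to 242 CPM in P26 controls. Leukocyte markers summed to 422.7 to 1335 CPM in 2-day Wnt libraries and 422.4 to 443 CPM in P23 controls, and to 577.4 to 2322 CPM in 5-day Wnt libraries and 447.7 to 3057 CPM in P26 controls. The share of counts from mitochondrial genes was 8.37% to 31.7% in 2-day Wnt libraries and 5.30% to 9.37% in P23 controls, with overlap, and 9.20% to 16.6% in 5-day Wnt libraries and 3.69% to 7.93% in P26 controls, without overlap. The part of any of these in the direction of the members was not tested. Without the 4 libraries poor in adipocyte markers, the counts of negative values were 25 at 2 days and 26 at 5 days. With the Y-linked signal as a covariate they were 22 at 2 days and 15 at 5 days, so the shared direction at 5 days did not hold in that fit. Among P26 controls only replicate 1, the library poorest in adipocyte markers, carried that signal. The signal and the other differences of that library cannot be told apart at P26.

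**Figure D2:**
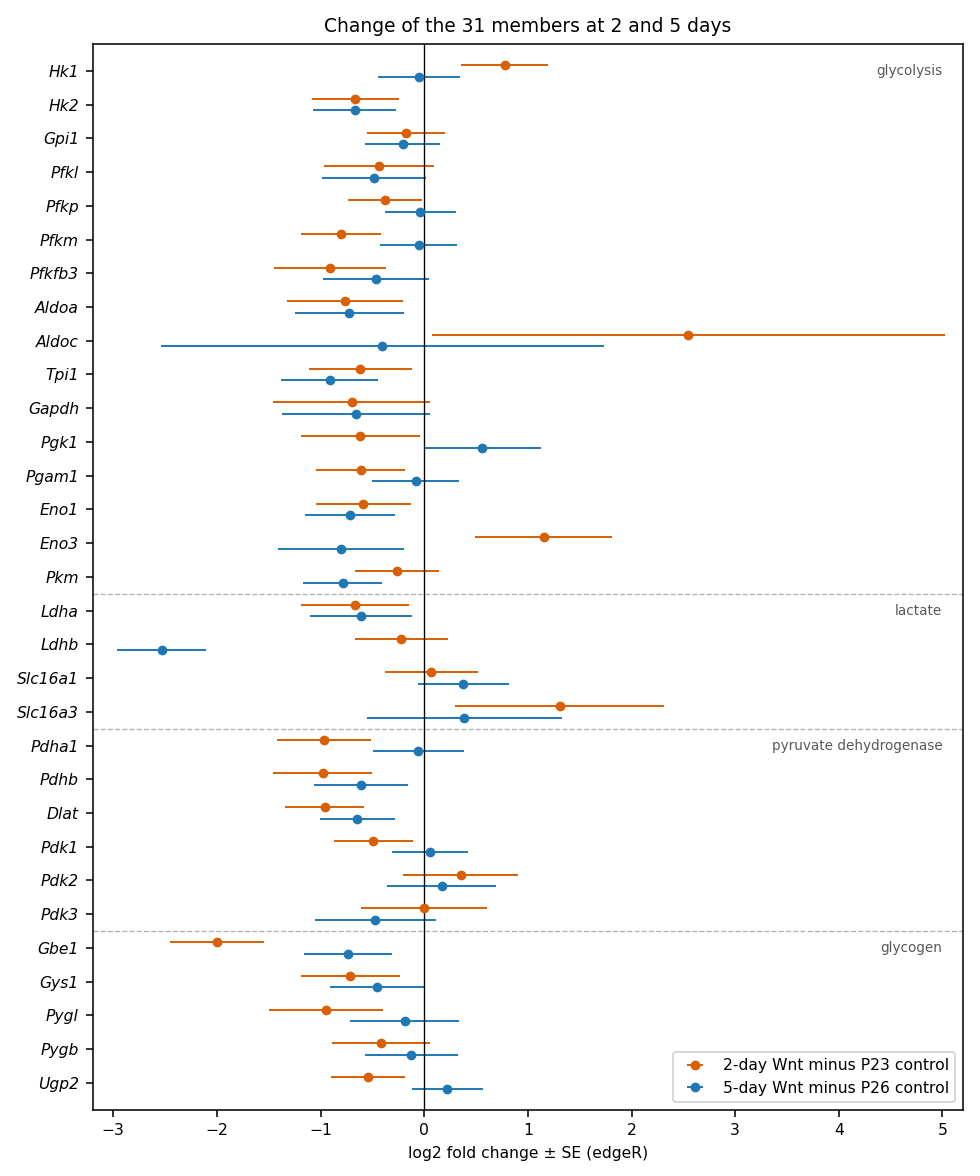
Points give the log2 fold change and bars its SE for each of the 31 genes, in orange for 2-day Wnt minus P23 control and in blue for 5-day Wnt minus P26 control. Most points lie left of 0 with bars that reach or approach it, and Ldhb at 5 days (−2.53) and Gbe1 at 2 days (−2.002) lie farthest left.

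The glycolytic enzymes are given in the order of the pathway. Hexokinases trap glucose as glucose 6-phosphate: hexokinase 2 (Hk2) is the insulin-responsive form of muscle and fat, and hexokinase 1 (Hk1) is found in most cells. Hk2 stood at 83.4, 183.6, 180.6 and 282.4 CPM in the 2-day Wnt libraries, against 312.6, 226.6 and 327.9 CPM in P23 controls. It stood at 91.4, 236.6, 209.7, 266.8 and 277.8 CPM in the 5-day Wnt libraries, against 247.3, 389.2 and 397.1 CPM in P26 controls. Replicate 1 was the lowest library of both Wnt groups, 3 of 4 libraries at 2 days and 3 of 5 at 5 days lay below every control of their age, and the groups overlapped at both times. The log2 fold changes were −0.66 ± 0.42 (SE) at 2 days and −0.67 ± 0.40 at 5 days.

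Hk1 ran against this at 2 days, with 48.7, 33.9, 35.3 and 37.5 CPM in the 2-day Wnt libraries, against 10.4, 17.7 and 39.98 CPM in P23 controls. Only P23 control replicate 3 reached the level of the Wnt libraries, and the log2 fold change was 0.78 ± 0.42 (edgeR adjusted p = 0.921). At 5 days it had 44.4, 29, 32.3, 34.5 and 68.2 CPM in Wnt libraries, against 48.1, 40.2 and 41.1 CPM in P26 controls, a difference of −0.05 ± 0.40. Per kilobase of transcript, Hk2 made up 54.5% to 84.0% of the summed Hk1 and Hk2 level in 2-day Wnt libraries and 85.1% to 95.5% in P23 controls. That share was 59.0% to 85.1% in 5-day Wnt libraries and 78.2% to 87.1% in P26 controls. The groups were apart at 2 days and overlapped at 5 days, and 2-day Wnt replicate 1 and 5-day Wnt replicate 1, both poor in adipocyte markers, held the lowest shares of their groups.

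Glucose-6-phosphate isomerase (Gpi1) ranged from 227.5 to 385.4 CPM in 2-day Wnt and 259.9 to 447.2 CPM in P23 control libraries, and from 159.6 to 362.9 CPM in 5-day Wnt and 192.8 to 381.5 CPM in P26 control libraries. Its groups overlapped at both times.

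Phosphofructokinase, the committed step, has liver, platelet and muscle forms (Pfkl, Pfkp and Pfkm). The muscle form stood at 10.9, 28.8, 32.2 and 24.1 CPM in the 2-day Wnt libraries, against 28.4, 49.0 and 48.0 CPM in P23 controls, and its log2 fold change of −0.80 ± 0.39 had an unadjusted p of 0.0535 and an edgeR adjusted p of 0.919. It stood at 25.1, 51.6, 29.9, 47.9 and 32.2 CPM in the 5-day Wnt libraries, against 41.6, 34.7 and 40.1 CPM in P26 controls. Wnt libraries lay on both sides of the controls at 5 days. Per kilobase, the liver form was the main one in most libraries, at 61.8% to 76.0% of the 3 forms in 2-day Wnt libraries, 55.4% to 72.1% in P23 controls, 32.9% to 62.2% in 5-day Wnt libraries and 26.7% to 65.6% in P26 controls. The lowest shares at P26 were in 5-day Wnt replicate 5 and P26 control replicate 1, the libraries poorest in adipocyte markers. The log2 fold changes were −0.44 ± 0.53 at 2 days and −0.48 ± 0.50 at 5 days for Pfkl, and −0.38 ± 0.36 and −0.04 ± 0.34 for Pfkp.

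Pfkfb3, the bifunctional enzyme that makes the potent activator of phosphofructokinase, was among the members without overlap at 2 days. It stood at 343.6, 702.2, 681.0 and 791.1 CPM in the 2-day Wnt libraries, against 1181, 1215 and 1142 CPM in P23 controls. The 3 controls lay close together and all 4 Wnt libraries lay under them, by −0.91 ± 0.54 on the log2 scale (edgeR adjusted p = 0.961). At 5 days it had 188.1, 711.8, 756.8, 992.5 and 345.2 CPM in Wnt libraries, against 274.8, 1029 and 1179 CPM in P26 controls. The low values at P26 were in the libraries poor in adipocyte markers, whichever their group, and the log2 fold change was −0.47 ± 0.51.

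Aldolase A (Aldoa), which splits the phosphorylated hexose, was the most abundant member per kilobase of transcript, at a mean of 1239 CPM per kb over all 15 libraries. It stood at 1345, 3324, 1244 and 1546 CPM in the 2-day Wnt libraries, against 2328, 4643 and 2533 CPM in P23 controls, and replicate 2 alone of the Wnt libraries reached the control range. It stood at 1147, 1053, 1386, 1572 and 433.9 CPM in the 5-day Wnt libraries, against 590.9, 1827 and 3112 CPM in P26 controls. The lowest library of each P26 group was one of the 4 poor in adipocyte markers. The log2 fold changes were −0.76 ± 0.56 at 2 days and −0.72 ± 0.53 at 5 days. Aldolase C (Aldoc), the brain form, was scarce, at 0 to 14.47 CPM, and 99.4% or more of the aldolase level per kilobase was Aldoa in every library. Its values were 0 counts in 5 libraries, namely 2-day Wnt replicate 4, P23 control replicate 1 and 5-day Wnt replicates 2, 3 and 5, which allow levels of up to 0.143, 0.102, 0.135, 0.141 and 0.123 CPM in the order named.

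Triosephosphate isomerase (Tpi1), which interconverts both aldolase products, stood at 279.1, 268.5, 320.5, 391.6 and 114.5 CPM in the 5-day Wnt libraries, against 182.4, 582.4 and 785.9 CPM in P26 controls. All Wnt libraries lay under control replicates 2 and 3, whereas replicate 1 lay within the Wnt range. The log2 fold change was −0.91 ± 0.47 (edgeR unadjusted p = 0.0679, adjusted p = 0.708). At 2 days it had 349.0, 648.7, 293.3 and 420.7 CPM in Wnt libraries, against 392.9, 959.5 and 614.6 CPM in P23 controls, with overlap and a log2 fold change of −0.62 ± 0.50.

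The later enzymes of glycolysis include several whose sequence is shared with copies elsewhere in the genome. Gapdh, the dehydrogenase that yields NADH and one of the most abundant messages of most cells, had only 23.4, 15.6, 15.5 and 3.30 CPM in the 2-day Wnt libraries, against 37.2, 14.8 and 18.2 CPM in P23 controls. It had 48.7, 31.5, 30.3, 8.20 and 1.81 CPM in the 5-day Wnt libraries, against 28.4, 43.3 and 42.3 CPM in P26 controls. The groups overlapped at both times, and the log2 fold changes of −0.70 ± 0.76 and −0.66 ± 0.72 were smaller than their SEs. Of the 50-base windows of its main transcript, 82.5% also occur in transcripts of other genes, and 121 other genes share a window of 75 bases. The same share was 72.2% for enolase 1 (Eno1), 68.0% for phosphoglycerate kinase (Pgk1) and 41.5% for phosphoglycerate mutase (Pgam1), all 4 of them glycolytic enzymes. The other 27 members were under 40%, and 12 shared no window. How the authors counted reads that match several genes is not given in the sources used here, so levels of these 4 genes are uncertain.

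**Figure D3:**
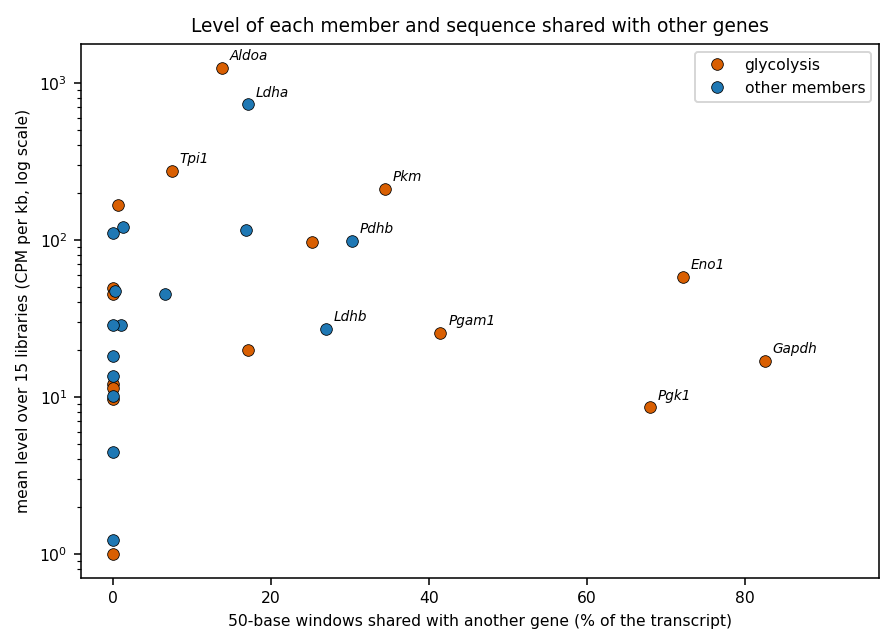
Each point is one of the 31 genes: the horizontal axis gives the percent of 50-base windows of its main transcript that also occur in another gene, and the vertical axis its mean level over the 15 libraries in CPM per kb on a log scale. Gapdh, Eno1, Pgk1 and Pgam1 stand on the right, at 17.02, 57.9, 8.57 and 25.6 CPM per kb, under their pathway neighbours Aldoa (1239) and Tpi1 (274.0).

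Eno1 stood at 87.4, 60.7, 105.1, 108.5 and 31.2 CPM in the 5-day Wnt libraries, against 68.7, 110.5 and 207.5 CPM in P26 controls, a log2 fold change of −0.71 ± 0.43. At 2 days it had 137.0, 157.7, 74.1 and 92.1 CPM in Wnt libraries, against 101.4, 232.3 and 185.5 CPM in P23 controls. The groups overlapped at both times. Eno1b, a near copy among the genes that share its sequence, took 52.9 to 210.1 CPM in 5-day Wnt libraries and 38.7 to 413.7 CPM in P26 controls, and how reads were divided between both genes cannot be told from these counts.

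Enolase 3 (Eno3), the muscle form, shared no window with other genes. It had 31.1, 25.2, 4.76 and 28.99 CPM in the 2-day Wnt libraries, against 9.73, 14.2 and 6.45 CPM in P23 controls, and the Wnt libraries other than replicate 3 lay above every control. At 5 days it had 11.9, 20.98, 16.7, 14.7 and 7.61 CPM in Wnt libraries, against 11.6, 53.5 and 10.2 CPM in P26 controls, where replicate 2 lay far above all other libraries. The log2 fold changes were 1.15 ± 0.66 at 2 days and −0.80 ± 0.60 at 5 days. Without P26 control replicate 2 the 5-day value was 0.41. The 12 skeletal muscle markers (Acta1 and Ckm among them) were positive in 12 of 12 at 2 days and in 2 of 12 at 5 days. They summed to 293 to 1421 CPM in 2-day Wnt libraries and 272 to 502 CPM in P23 controls, and to 94.5 to 523 CPM in 5-day Wnt libraries and 175 to 1418 CPM in P26 controls. P26 control replicate 2 held the 1418 CPM and 2-day Wnt replicate 1 the 1421 CPM. Their part in the Eno3 values was not tested.

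Pyruvate kinase (Pkm), the last step, had the second smallest unadjusted p among members at 5 days. It stood at 639.6, 347.9, 405.8, 438.2 and 256.0 CPM in the 5-day Wnt libraries, against 526.0, 666.4 and 970.4 CPM in P26 controls. Replicate 1 alone of the Wnt libraries reached the controls, and the log2 fold change was −0.79 ± 0.38 (edgeR unadjusted p = 0.0548, adjusted p = 0.707). At 2 days it had 590.5, 477.8, 296.3 and 438.1 CPM in Wnt libraries, against 313.4, 739.1 and 572.3 CPM in P23 controls. Wnt replicate 3 lay just below every control, and the other Wnt libraries lay inside the control range. The log2 fold change was −0.27 ± 0.41. Pgk1 and Pgam1, whose levels are uncertain, ranged from 3.29 to 36.7 CPM and from 19.9 to 45.2 CPM in 5-day Wnt libraries, against 10.1 to 15.7 CPM and 15.4 to 52.8 CPM in P26 controls. At 2 days they ranged from 8.50 to 15.6 CPM and from 34.3 to 64.3 CPM in Wnt libraries, against 15.4 to 26.6 CPM and 37.0 to 83.9 CPM in P23 controls.

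Among the genes of lactate metabolism, Ldhb had the largest fitted difference among the 31 genes at 5 days. This B subunit of lactate dehydrogenase (ENSMUSG00000030246, GRCm38 chr6:142490249-142507957, minus strand) stood at 13.7, 12.8, 16.4, 9.78 and 13.3 CPM in the 5-day Wnt libraries, against 69.8, 45.9 and 113.7 CPM in P26 controls. All 5 Wnt libraries lay within a narrow band, well under the lowest control, and Ldhb was the only member without overlap at 5 days (2.25% of all genes were lower and 3.39% higher without overlap). The log2 fold change was −2.53 ± 0.43, or 5.79-fold lower, with an unadjusted p of 1.29e-05 and an edgeR adjusted p of 0.166. It was called by DESeq2 (adjusted p = 2.67e-05) and by the weighted limma-voom fit (adjusted p = 0.00728), and by edgeR without P26 control replicate 2 (−2.78, adjusted p = 0.0463). Over all alternatives the adjusted p ran from 2.67e-05 to 0.51 and the log2 fold change kept its sign.

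At 2 days Ldhb did not stand apart, with 57.8, 29.9, 16.4 and 21.2 CPM in Wnt libraries, against 57.6, 22.6 and 29.2 CPM in P23 controls. The Wnt libraries spanned the control range, and the log2 fold change was −0.22 ± 0.45. The 5-day effect minus the 2-day effect was −2.31 ± 0.63, with an unadjusted p of 0.00177 and an edgeR adjusted p of 0.81, so a difference between both times was not called. Between the controls, P26 libraries were above P23 libraries by 1.07 ± 0.49 (edgeR adjusted p = 0.699). Of the 50-base windows of Ldhb, 27.01% also occur in other genes, and 1 other gene, Gm5514, shares a window of 75 bases.

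Of the 12 keratinocyte markers, 12 had a negative value at 5 days (median log2 fold change −3.05, 5 of them at an unadjusted p under 0.05, none called), and they summed to 442.6, 91.5, 67.3, 1242 and 148.0 CPM in the 5-day Wnt libraries, against 8411, 994.7 and 1061 CPM in P26 controls. At 2 days they summed to 1671, 36.4, 57.2 and 95.3 CPM in Wnt libraries, against 431.4, 396.7 and 56.3 CPM in P23 controls. No defining marker was at 0 throughout a group, and up to 3 of the 12 were at 0 in single libraries. 5-day Wnt replicate 4, with a keratinocyte sum above P26 control replicates 2 and 3, had the lowest Ldhb level of all libraries. Without P26 control replicate 1, which has the highest keratinocyte sum, the Ldhb log2 fold change was −2.59 (edgeR adjusted p = 0.0768), and without the 4 libraries poor in adipocyte markers it was −2.59 (edgeR adjusted p = 0.039). Other marker lists had negative values at 5 days too: 7 of the 7 hair follicle markers tested (median −1.82), 10 of 12 skeletal muscle markers (median −1.01, 2 at an unadjusted p under 0.05) and 12 of 15 leukocyte markers (median −0.53), none called. Hair follicle markers summed to 7.77 to 277.9 CPM in 5-day Wnt libraries and 0.561 to 849.2 CPM in P26 controls. The part of RNA from any of these cells in the Ldhb difference was not tested.

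The A subunit gene, Ldha, was the second most abundant member per kilobase (728.3 CPM per kb over all libraries). It stood at 664.4, 952.5, 1092, 1238 and 333.6 CPM in the 5-day Wnt libraries, against 477.0, 1454 and 2000 CPM in P26 controls. At 2 days it had 875.6, 1858, 850.1 and 1475 CPM in Wnt libraries, against 1684, 2782 and 1557 CPM in P23 controls. The groups overlapped at both times, and the log2 fold changes were −0.61 ± 0.49 at 5 days and −0.67 ± 0.52 at 2 days. Per kilobase, Ldhb made up 2.72%, 1.79%, 2.00%, 1.06% and 5.10% of the summed lactate dehydrogenase level in 5-day Wnt libraries, against 16.5%, 4.10% and 7.15% in P26 controls. 5-day Wnt replicate 5, which had the lowest Ldha level, reached the lowest control, so the share overlapped although the Ldhb level did not. That share was 1.91% to 8.20% in 2-day Wnt libraries and 1.09% to 4.43% in P23 controls.

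Lactate leaves and enters cells through monocarboxylate transporters. Slc16a3 (MCT4), the exporter of glycolytic cells, was scarce and was the only member higher without overlap at 2 days, where 2.24% of all genes were. It stood at 7.71, 6.33, 4.38 and 5.30 CPM in the 2-day Wnt libraries, against 1.22, 1.74 and 4.22 CPM in P23 controls. The lowest Wnt library and the highest control nearly met, and the log2 fold change was 1.31 ± 1.01 (edgeR adjusted p = 1.0). At 5 days it ranged from 2.02 to 14.8 CPM in Wnt libraries and from 0.861 to 9.31 CPM in P26 controls. Slc16a1 (MCT1), which carries lactate in either direction, ranged from 37.1 to 126.0 CPM in 2-day Wnt and 48.5 to 75.7 CPM in P23 control libraries, and from 39.8 to 80.2 CPM in 5-day Wnt and 24.5 to 75.7 CPM in P26 control libraries.

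**Figure D4:**
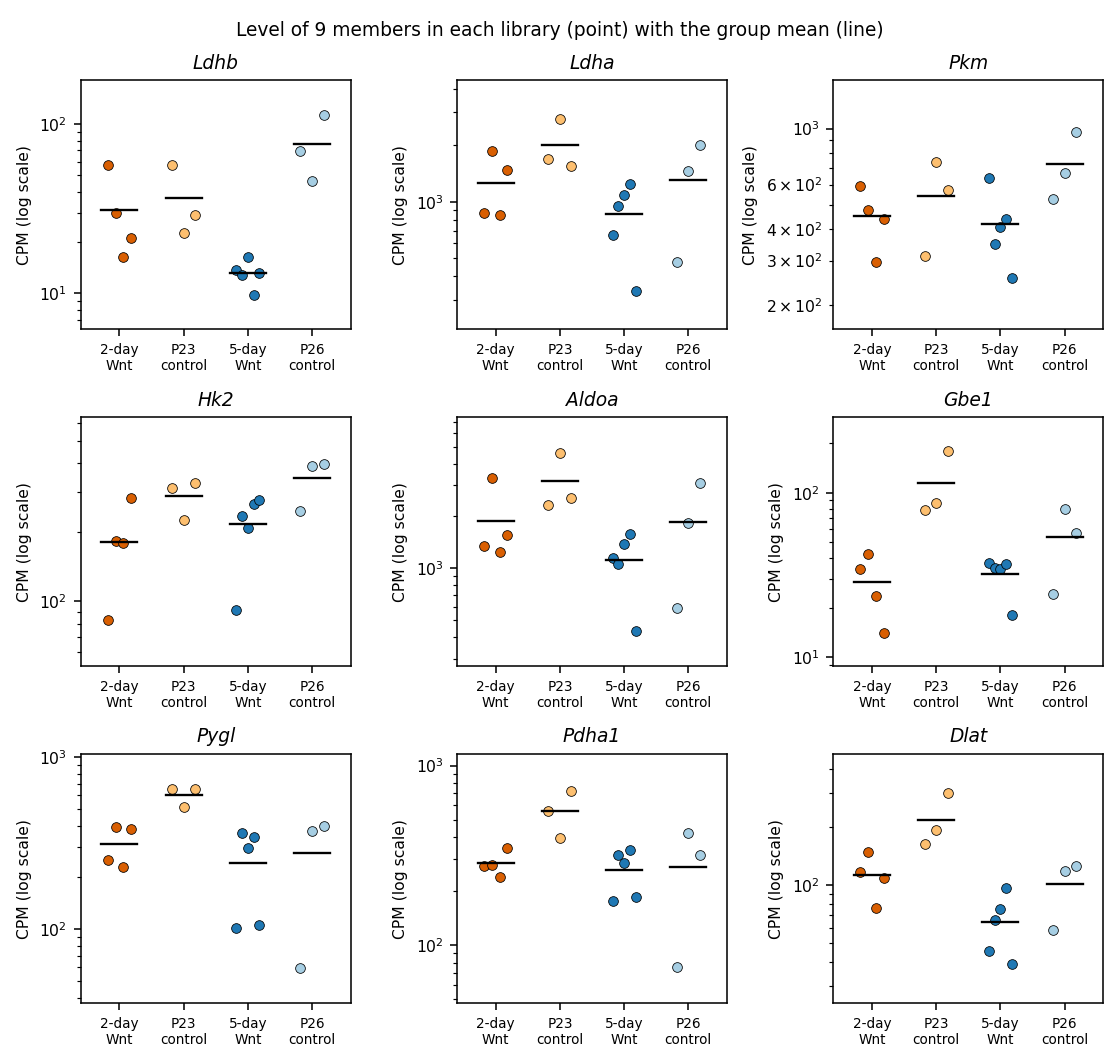
Each panel gives 1 gene, each point 1 library in CPM on a log axis, and each line the group mean, with 2-day Wnt (n = 4), P23 control (n = 3), 5-day Wnt (n = 5) and P26 control (n = 3) from left to right. Ldhb at 5 days (9.78 to 16.4 CPM against 45.9 to 113.7 CPM) and Gbe1, Pygl, Pdha1 and Dlat at 2 days show no overlap with the controls of their age.

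The pyruvate dehydrogenase complex commits pyruvate to acetyl-CoA. Its measured subunits are Pdha1 (the alpha subunit of the first enzyme, X-linked), Pdhb (the beta subunit) and Dlat (the acetyltransferase core), and none was called at 2 days by any of the 3 tools. In the 2-day Wnt libraries Pdha1 and Dlat lay under every P23 control, as did 2.91% of all genes, and Pdhb overlapped by 1 Wnt library. Pdha1 stood at 277.5, 279.9, 240.5 and 348.1 CPM in the 2-day Wnt libraries, against 561.6, 393.8 and 723.4 CPM in P23 controls. Dlat stood at 116.1, 148.1, 75.7 and 108.5 CPM in the 2-day Wnt libraries, against 162.2, 193.3 and 298.3 CPM in P23 controls. Pdhb stood at 96.8, 249.0, 92.1 and 101.8 CPM in the 2-day Wnt libraries, against 172.0, 271.9 and 353.5 CPM in P23 controls, with Wnt replicate 2 far above the other Wnt libraries. The log2 fold changes were nearly equal, at −0.97 ± 0.45 for Pdha1 (unadjusted p = 0.0474), −0.96 ± 0.38 for Dlat (unadjusted p = 0.022) and −0.98 ± 0.48 for Pdhb (unadjusted p = 0.0551), each with an edgeR adjusted p of 0.919.

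At 5 days the same subunits overlapped their controls. Pdha1 had 175.8, 318.1, 288.4, 338.6 and 186.3 CPM in Wnt libraries, against 75.9, 419.8 and 319.5 CPM in P26 controls (log2 fold change −0.06 ± 0.44). Dlat had 45.5, 66.1, 75.2, 96.1 and 38.9 CPM in Wnt libraries, against 58.1, 118.6 and 125.4 CPM in P26 controls (−0.65 ± 0.36). Pdhb had 95.9, 99.4, 93.2, 128.4 and 46.0 CPM in Wnt libraries, against 59.3, 125.1 and 239.8 CPM in P26 controls (−0.61 ± 0.45). P26 control replicate 1 was the lowest of its group for all 3 genes. The controls themselves were lower at P26 than at P23, by −1.04 ± 0.49 for Pdha1, −1.11 ± 0.42 for Dlat and −0.91 ± 0.52 for Pdhb, none of them called.

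The kinases that inhibit the complex were not called either. Pdk1, a target of hypoxia-inducible factor 1, stood at 58.7, 64.9, 35.6 and 60.0 CPM in the 2-day Wnt libraries, against 89.8, 62.4 and 78.7 CPM in P23 controls. It stood at 48.6, 41.0, 52.0, 48.9 and 21.8 CPM in the 5-day Wnt libraries, against 19.4, 48.8 and 54.4 CPM in P26 controls. The groups overlapped at both times, although 3 of the 4 Wnt libraries at 2 days lay below every control, and the log2 fold changes were −0.49 ± 0.38 and 0.05 ± 0.37. Pdk2 made up 68.5% to 96.0% of the summed Pdk1, Pdk2 and Pdk3 level per kilobase over all libraries, a sum that leaves out Pdk4. Pdk2 ranged from 86.6 to 512.0 CPM in 2-day Wnt and 139.6 to 387.4 CPM in P23 control libraries. It ranged from 96.9 to 280.4 CPM in 5-day Wnt and 92.8 to 255.8 CPM in P26 control libraries. Pdk3 was scarce, at 3.71 to 13.6 CPM in 2-day Wnt, 5.79 to 9.83 CPM in P23 control, 7.57 to 10.9 CPM in 5-day Wnt and 8.21 to 19.9 CPM in P26 control libraries.

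All 5 glycogen genes had negative log2 fold changes at 2 days (median −0.71), and 4 of 5 did at 5 days (median −0.19). Gbe1, the branching enzyme that adds side chains to growing glycogen (ENSMUSG00000022707, GRCm38 chr16:70313949-70569716, plus strand), had the lowest fitted log2 fold change of the 31 genes at 2 days. It stood at 34.6, 42.5, 23.6 and 14.04 CPM in the 2-day Wnt libraries, against 78.1, 86.3 and 180.2 CPM in P23 controls. All 4 Wnt libraries lay under the lowest control, as did Dlat, Pdha1, Pfkfb3 and Pygl, 5 members in all, where 2.91% of all genes were lower without overlap. The log2 fold change was −2.002 ± 0.45, or 4.01-fold lower, with an unadjusted p of 0.000331 and an edgeR adjusted p of 0.919. DESeq2 called it (adjusted p = 0.00527) and the weighted limma-voom fit did not (adjusted p = 0.401). Over the alternatives in which the libraries were left out singly, the log2 fold change lay between −2.26 and −1.55.

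At 5 days Gbe1 had 37.3, 34.9, 34.4, 36.7 and 18.1 CPM in Wnt libraries, against 24.2, 80.0 and 57.0 CPM in P26 controls. P26 control replicate 1 lay inside the Wnt range, and the log2 fold change was −0.74 ± 0.42 (edgeR adjusted p = 0.732). The 5-day effect minus the 2-day effect was 1.27 ± 0.63 (edgeR adjusted p = 0.899). The Wnt groups were close to each other, at 28.7 ± 12.5 CPM at 2 days (SD, n = 4) and 32.3 ± 8.01 CPM at 5 days (SD, n = 5), whereas P23 controls averaged 114.9 ± 56.7 CPM and P26 controls 53.7 ± 28 CPM (SD, n = 3 each).

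Glycogen synthase 1 (Gys1), which extends the chains and is the form outside liver, stood at 111.2, 269.1, 170.6 and 143.5 CPM in the 2-day Wnt libraries, against 197.0, 420.4 and 236.3 CPM in P23 controls. It stood at 53.3, 99.0, 150.8, 166.0 and 50.2 CPM in the 5-day Wnt libraries, against 75.4, 134.1 and 218.0 CPM in P26 controls. The groups overlapped, with log2 fold changes of −0.71 ± 0.48 and −0.46 ± 0.46. Gys1 overlaps another gene, Ruvbl2, and the use of strand in counting is not given in the sources used here, so counts in the shared stretch cannot be told apart. The same holds for Pdha1, which overlaps Map3k15, and Pfkp, which overlaps Pitrm1.

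Glycogen phosphorylase has liver and brain forms here, Pygl and Pygb. Pygl stood at 251.1, 393.1, 230.5 and 380.4 CPM in the 2-day Wnt libraries, against 651.4, 514.7 and 649.7 CPM in P23 controls, without overlap and with a log2 fold change of −0.95 ± 0.55 (edgeR adjusted p = 0.947). At 5 days it had 101.9, 361.6, 298.2, 342.1 and 106.3 CPM in Wnt libraries, against 59.3, 372.5 and 396.4 CPM in P26 controls, and its low values at P26 were again in the libraries poor in adipocyte markers. Pygb ranged from 90.8 to 302.3 CPM in 2-day Wnt and 197.7 to 381.3 CPM in P23 control libraries, and from 97.6 to 177.5 CPM in 5-day Wnt and 52.7 to 260.5 CPM in P26 control libraries. Ugp2, which makes the UDP-glucose that glycogen is built from, ranged from 49.0 to 87.8 CPM in 2-day Wnt and 51.1 to 120.5 CPM in P23 control libraries. It ranged from 52.6 to 96.4 CPM in 5-day Wnt and 50.6 to 86.6 CPM in P26 control libraries, and its log2 fold changes were −0.54 ± 0.35 at 2 days and 0.22 ± 0.34 at 5 days.

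Between the control groups, 21 of 31 genes were lower at P26 than at P23 (median log2 fold change −0.43), against 50.6% of all genes tested (median −0.01). Markers of other cells differed between the same controls: leukocyte markers were positive at P26 in 15 of 15 (median 2.16, 11 at an unadjusted p under 0.05), keratinocyte markers in 12 of 12 (median 3.59) and stromal markers in 12 of 12 (median 1.22), and adipocyte markers were negative in 10 of 12 (median −0.59), none called. Their part in the values of the members was not tested. Dlat, Pdk1 and Pygl were lower at P26 without overlap, where 5.67% of all genes were, and Hk1 was higher without overlap, where 6.51% were. Hk1 had 48.1, 40.2 and 41.1 CPM in P26 controls, against 10.4, 17.7 and 39.98 CPM in P23 controls. The P23 controls are also the controls of the 2-day comparison, so Gbe1, Dlat, Pdha1 and Pygl, which were high in them, appear in both comparisons through the same libraries. At an unadjusted p under 0.05, Dlat, Gbe1, Pdha1 and Pdk1 were lower at P26 (2.13% of all genes) and Ldhb was higher (4.85%). DESeq2 and weighted limma-voom called none of the 31 between the controls, where they called 1.73% and 0.791% of all genes. The difference between the 5-day and 2-day effects was negative for 13 members, against 47.3% of all genes, and positive for 18, against 52.7%. Eno3 and Ldhb had an unadjusted p under 0.05 there, both negative, as had 2.93% of all genes tested, no member was positive at that p, against 2.79%, and edgeR called no gene.

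The 52 further genes of these pathways (other isoforms, glycogen regulators, pyruvate carriers and gluconeogenic enzymes), of which 46 passed the filter on low counts, are mostly given by counts. At 2 days 18 were positive and 28 negative (median −0.28), and at 5 days 20 were positive and 26 negative (median −0.12), none of them called. Dld, Mpc1 and Pck2, picked for their small p among these genes, are also given by level. The members of the complex and its supply that came nearest were the shared dehydrogenase subunit Dld at 2 days and the mitochondrial pyruvate carrier Mpc1 at 5 days. Dld stood at 146.7, 112.7, 115.7 and 178.7 CPM in the 2-day Wnt libraries, against 230.6, 160.5 and 309.7 CPM in P23 controls (log2 fold change −0.75 ± 0.42). Mpc1 stood at 4.91, 14.45, 19.9, 29.7 and 6.54 CPM in the 5-day Wnt libraries, against 8.79, 35.2 and 54.2 CPM in P26 controls (log2 fold change −1.11 ± 0.59), with its lowest values in the 3 libraries poor in adipocyte markers. Pck2, the mitochondrial form of phosphoenolpyruvate carboxykinase, was positive at 2 days, with 37.9, 25, 59.9 and 24.7 CPM in Wnt libraries, against 14.9, 21.9 and 15.96 CPM in P23 controls (log2 fold change 1.07 ± 0.43, edgeR adjusted p = 0.919). Its groups did not overlap at 2 days, where 2.24% of all genes tested were higher without overlap.

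A list of 16 known targets of hypoxia-inducible factor 1 outside the 31 genes, 15 of which passed the filter, had 9 positive and 6 negative values at 2 days (median 0.24) and 4 positive and 11 negative at 5 days (median −0.18), none called.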

How the data were processed

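The values used were raw counts per gene in 15 libraries, as deposited by the authors. Tools named in the submitters' processing notes are Cufflinks 2.2.1, DESeq2 1.40.1, SAMtools 1.9 and Trimmomatic 0.39, with the mouse assemblies GRCm38 and mm10. Which aligner and counter were used, and how strand and reads matching several genes were handled, is not given in the sources used. Per the labels' protocols, 100 ng of total RNA entered a Universal Plus mRNA-Seq library.

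Groups followed the sample titles. All libraries were fitted in a 4-group model with edgeR's robust quasi-likelihood test (edgeR 4.0.16, R 4.3.3; TMM scaling; filterByExpr kept 16935 of 35373 genes). P-values were two-sided and adjusted over all genes tested by Benjamini-Hochberg with a threshold of 0.05. SEs are the size of the log2 fold change over the square root of F. CPM use TMM-scaled library sizes, and CPM per kb the length of the principal transcript in GENCODE M21, whose windows were also searched for in all other transcripts. The fits were also run on simulated counts with the same spread for all genes and no divergent libraries. That differs from these data, so the run does not measure their power here. Of the nonzero values of a library, 0.946% to 1.94% were 1 or 2, so 1 count need not be 1 molecule; floors of 3 counts cover counting error only.

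The genes, lists and tests were chosen with earlier results of these data known. Values in every library are given for the 8 members with the smallest p in each Wnt comparison and for Hk2, Gapdh, Pkm, Ldha, Ldhb, Pdk1, Gbe1 and Gys1; Pfkfb3 and Slc16a3 were added after their values were seen. Of the further pathway genes with the smallest p in each Wnt comparison, Pck2 and Dld at 2 days and Mpc1 at 5 days are given; Fbp2 and Gys2 had 0 counts in several libraries and their levels are not given, and a further result is not reported here. Alternatives were DESeq2 1.42.0, limma-voom with library weights (limma 3.58.1), other filters on low counts, libraries left out, the sample sheet's grouping, a replicate block and a Y-linked covariate. The other deposited count tables were not used.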

Additional observations from a re-analysis of the deposited data

Results flagged for a closer look

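Within groups of 4 or 5 libraries, 6 of the 62 sets of member values examined held a library far from the others by Dixon's criterion, which chance gives in about 1 in 20 sets. Of these, 3 were high in 2-day Wnt replicate 2: Aldoa at 3324 CPM (1244 to 1546 CPM in the other 2-day Wnt libraries), Pdhb at 249.0 CPM (92.1 to 101.8 CPM) and Pgam1 at 64.3 CPM (34.3 to 37.0 CPM). In 5-day Wnt replicate 5, Gbe1 was low at 18.1 CPM (34.4 to 37.3 CPM in the other 5-day Wnt libraries) and Pgam1 was low at 19.9 CPM (39.4 to 45.2 CPM). In 5-day Wnt replicate 1, Aldoc was high at 10.8 CPM (0 to 1.07 CPM in the others). 2-day Wnt replicate 2 had the highest adipocyte marker sum of its group (69800 CPM), and 5-day Wnt replicates 1 and 5 had the lowest of theirs (21360 and 11800 CPM). The part of these sums in the values was not tested.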

How the results depend on the processing

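Where edgeR called no gene, DESeq2 called 149 at 2 days, 200 at 5 days, 149 for the difference between both effects and 286 between the controls. The weighted limma-voom fit called 226 at 5 days and 134 between the controls. Without the 4 libraries poor in adipocyte markers (chosen after seeing the data) edgeR called 43 genes at 5 days, 28 for the difference and 96 between the controls. Without 2-day Wnt replicate 1 and P26 control replicate 1 it called 4 at 5 days. Leaving out libraries singly gave 0 to 4 calls at 5 days, 0 to 2 for the difference and 0 to 5 between the controls (5 without 5-day Wnt replicate 5). The count of members with a negative value, 25 of 31 at both times, ranged over the fits with a single library left out from 23 to 26 at 2 days and from 17 to 25 at 5 days (17 without P26 control replicate 3). With the Y-linked covariate it was 22 at 2 days and 15 at 5 days, with the replicate block 27 and 23, and in weighted limma-voom and without the 4 libraries 26 at 5 days. With the sheet's grouping it was 24 at 2 days. Samples with the same replicate number did not deviate together (r from −0.104 to 0.173 over 19 pairs); a replicate block called 5 genes between the controls and none elsewhere.

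Of 864 values of named members under alternatives, 819 kept their sign and side of the threshold, 6 became called (Gbe1 in DESeq2 and Ldhb in the others) and 39 changed sign, none of these called. With the Y-linked covariate, log2 fold changes turned positive for Pkm at 2 days (0.060) and at 5 days for Hk1 (0.24), Aldoa (0.045), Eno1 (0.067), Pdha1 (0.42), Pdhb (0.12), Gbe1 (0.063) and Pygl (0.26). Pdha1 was 0.045 at 5 days with the replicate block. With the sheet's grouping, 2-day values fell in size for most named members, as for Hk2 (−0.14), Hk1 (0.29), Eno3 (0.36) and Pfkm (−0.27), and Gbe1 had −1.83. They grew in size for Ldhb (−0.89), Gapdh (−1.03), Pkm (−0.45) and Eno1 (−0.60). Without 2-day Wnt replicate 1 and P26 control replicate 1, 5-day values were 0.037 for Hk1, 0.0084 for Pfkm and −0.27 for Pdk1. They were 0.11 for Pfkm and −0.10 for Pdk1 in weighted limma-voom, and 0.22 and −0.11 without the 4 libraries. Leaving out libraries singly, 5-day values ranged from −0.29 to 0.056 for Hk1, −0.20 to 0.058 for Pfkm, −1.18 to 0.41 for Eno3, −0.49 to 0.42 for Pdha1, −0.97 to 0.0062 for Pdhb, −0.27 to 0.32 for Pdk1 and −0.65 to 0.16 for Pygl, and 2-day values from −0.54 to 0.023 for Pkm and −0.70 to 0.27 for Ldhb. The causes of these changes were not tested. Without 5-day Wnt replicate 2 the edgeR adjusted p of Ldhb was 0.51, and without P26 control replicate 3 its log2 fold change was −2.13. The log2 fold change was under 2 SEs for 26 of the 31 members at 2 days and for 29 at 5 days. Members above 2 SEs were not called by edgeR either, so these counts do not set the size of difference that could be detected here.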
